A study of Mus musculus with 4 samples.

Results

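The Dcpp-rich acinar cells of the mouse salivary glands are 525 of the 15707 barcodes in the single-cell RNA-seq matrix, a share of 3.34% (exact binomial 95% interval 3.07 to 3.64). They were chosen by 3 limits: at least 5000 UMIs in all, at least 50% of those UMIs on Dcpp1, Dcpp2 and Dcpp3 together, and fewer than 20 UMIs per 10000 on Muc19 and A2ml1 together. A UMI (unique molecular identifier) marks 1 captured RNA molecule, so a count of UMIs is a count of molecules. The Dcpp total, the Muc19 and A2ml1 total and the depth of these cells are therefore properties of the choice and are given only as a description.

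The cells came from the submandibular and sublingual glands, pooled, of untreated wild-type female C57BL/6N mice 6 to 8 weeks old, with no other group in the series. The labels list 4 samples and name 2 mice, whereas the study's methods name 3. The 4 samples share 1 matrix with 1 barcode suffix, and all 15707 barcodes are distinct, so which sample, animal or gland a cell came from is not known. All cells are taken as 1 sample, no difference below has a replicate check, and every interval covers counting error only.

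Dcpp stands for demilune cell and parotid protein, a small family of secreted salivary proteins. Demilune cells are serous cells that cap the mucous tubules of the sublingual gland, and serous cells in general fill their granules with proteins rather than with gel-forming mucins. Among the partners of Dcpp in such cells are proteins that bind bacterial surfaces, including the BPI fold protein Bpifa2, also known as parotid secretory protein, and the peptidoglycan recognition protein Pglyrp1.

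The 3 Dcpp genes lie in tandem on the plus strand of chromosome 17 (GRCm38, GENCODE M21). Dcpp1 spans 23880876 to 23882853 and Dcpp3 spans 23917458 to 23919441. The annotated Dcpp2 gene, from 23880880 to 23900788, covers nearly all of Dcpp1. The 250 bases before each RefSeq start (GRCm38.p6, plus strand, 5′ to 3′) are shown because the 3 genes differ in level and in how much they vary between members. They are those at chr17:23880626-23880875, chr17:23898472-23898721 and chr17:23917208-23917457. Capitals mark 4 motifs on either strand: TATAA, the cAMP response type TGACGT, the ETS type CTTCCT and the SOX type CATTGT.
Dcpp1: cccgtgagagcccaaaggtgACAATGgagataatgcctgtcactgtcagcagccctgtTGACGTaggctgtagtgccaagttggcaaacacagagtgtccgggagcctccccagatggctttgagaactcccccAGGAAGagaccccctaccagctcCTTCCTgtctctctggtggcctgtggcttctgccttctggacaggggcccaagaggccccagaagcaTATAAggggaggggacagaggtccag
Dcpp2: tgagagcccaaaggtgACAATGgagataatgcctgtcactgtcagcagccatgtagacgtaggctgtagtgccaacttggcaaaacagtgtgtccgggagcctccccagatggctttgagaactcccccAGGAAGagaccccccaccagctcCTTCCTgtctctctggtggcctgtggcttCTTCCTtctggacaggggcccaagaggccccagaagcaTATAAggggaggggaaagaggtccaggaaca
Dcpp3: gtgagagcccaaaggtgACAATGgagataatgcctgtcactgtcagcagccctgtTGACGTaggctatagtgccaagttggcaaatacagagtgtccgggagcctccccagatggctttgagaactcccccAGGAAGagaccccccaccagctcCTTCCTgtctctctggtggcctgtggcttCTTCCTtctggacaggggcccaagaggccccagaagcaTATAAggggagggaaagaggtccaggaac

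These promoter sequences were 93.3% identical between Dcpp1 and Dcpp2, 94.9% between Dcpp1 and Dcpp3, and 96.4% between Dcpp2 and Dcpp3. Each held 1 TATAA, starting 26, 31 and 29 bases before the start of Dcpp1, Dcpp2 and Dcpp3, against 22.8% of 32851 mouse promoters of the same length that held any. Each held 1 CATTGT, which 10.7% of promoters held. CTTCCT was found 2 times before Dcpp1 and 3 times before Dcpp2 and Dcpp3 (29.5% of promoters held any), and TGACGT 1 time before Dcpp1 and Dcpp3 and not before Dcpp2 (6.47%). Neither CAGCTG (13.0% of promoters) nor CATATG (3.46%), both E-box forms, occurred in these windows. A match is a run of letters and was not tested as a site.

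The transcripts are also close. The Dcpp1 and Dcpp3 transcripts were 93.4% identical, and Dcpp2 was 90.0% identical to Dcpp1 and 91.8% to Dcpp3. Of the 90-base windows in the last 300 bases of the main transcripts, 62.6% of those of Dcpp1, 73.5% of those of Dcpp2 and 62.1% of those of Dcpp3 were found in no other annotated gene. The rest were shared within the family, so the split of UMIs among the 3 genes is less certain than their sum.

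The members held 10.4% of all UMIs in the matrix and 66.7% of all Dcpp UMIs. Their depth ran from 5016 to 97687 UMIs with a median of 24604, and a median of 1281 genes was detected per cell. Summed over the members, Dcpp took 81.4% of UMIs, and in single members between 50.9% and 91.5% with a median of 81.2%. The plot of Dcpp share by depth shows most members near the top of that range, 297 of them at 80% or more and 164 between 70% and 80%, with only 32 each between 60% and 70% and between 50% and 60%. Free RNA carried Dcpp widely, since 15706 of the 15707 barcodes had at least 1 Dcpp UMI.

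**Figure D1:**
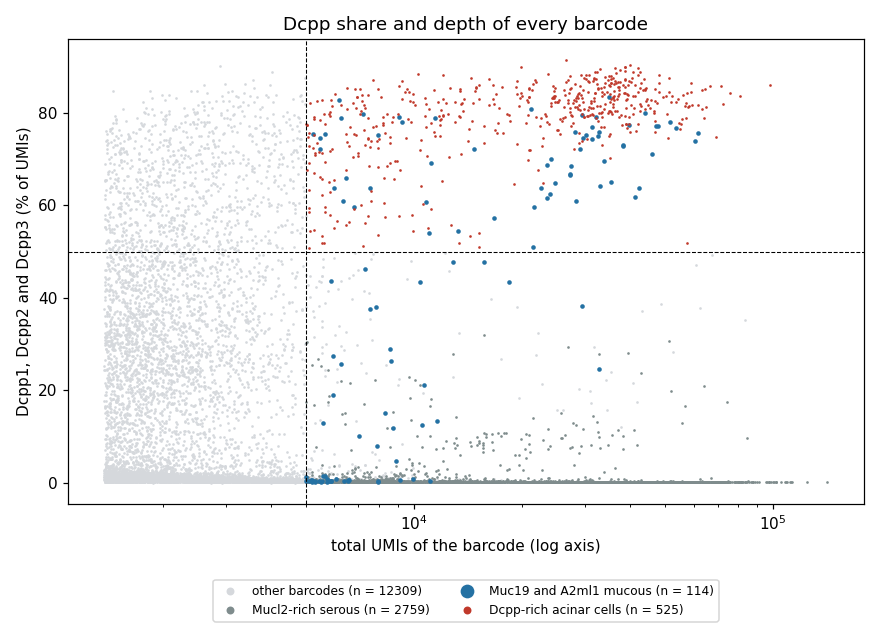
Each point is 1 of the 15707 barcodes, placed by its total UMIs (log axis) and by the percentage of them on Dcpp1, Dcpp2 and Dcpp3, with dashed lines at the limits of 5000 UMIs and 50%. The 525 members are red, the 2759 Mucl2-rich serous cells dark grey and mostly near 0%, and the 114 mucous cells blue, of which 62 lie above the 50% line.

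At the limits the cells ran on without a gap. The 3 shallowest members had 5016, 5026 and 5049 UMIs, and 874 barcodes that met the other limits fell short of the depth, the closest at 4996, 4962 and 4958. The members with the lowest Dcpp shares had 50.9%, 51.0% and 51.2%, and the closest cells outside had 49.8%, 49.6% and 49.4%. The highest Muc19 and A2ml1 totals inside were 19.6, 19.6 and 19.8 UMIs per 10000 and the lowest outside 20.1, 20.5 and 20.7. Over that limit lay 62 Dcpp-rich cells.

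Comparison groups were set by similar limits, with the same minimum of 5000 UMIs. Serous cells (2759) had at least 40% of their UMIs on Mucl2, the most abundant product of these cells, and a median of 23483 UMIs. Mucous cells (114) had at least 20 UMIs per 10000 on Muc19 and A2ml1 and under 40% on Mucl2, and 62 of them also had at least 50% Dcpp. Their median depth was lower, at 10138.5 UMIs, and at 6560 in the 52 without 50% Dcpp. As a reference for free RNA, 1057 lymphoid cells were taken by their own marker genes, at a median of 1880 UMIs. A lymphoid cell should make no salivary product, so the UMIs it carries show what a droplet holds beside its cell. Of these reference cells 1 was also a member. No doublet caller was run and no barcode was removed.

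The name acinar was checked on Aqp5 and Cldn10, which the choice did not use. Shares of cells with a UMI were compared after each cell had been thinned to 500 UMIs outside the secreted product genes, which left out 12 members, 63 serous and 17 lymphoid cells. Aqp5, the apical water channel of acinar cells, was then seen in 52.2% of members, 60.4% of serous and 1.73% of lymphoid cells (88.6% of members unthinned). Cldn10, an acinar tight junction claudin, was seen in 67.4%, 49.5% and 1.63% (91.8% of members unthinned). Other acinar markers set for the check did not add to it. The transcription factor Bhlha15 was lower in members than in serous cells (log2 ratio -1.93 in UMIs outside the secreted product genes). Prol1 was at 1.71 times the lymphoid reference in UMIs per cell, and Gjb1 is not reported here. Markers of other cell types were few per cell. All of the 8 endothelial, 8 mesenchymal, 10 myeloid and 5 erythroid markers were detected somewhere in the members, but the summed UMIs of each of these lists had a median of 0 per member. The same median held for the basal and myoepithelial list, with Oxtr at 0, and for the lymphoid list, with Cd3e and Cd79a at 0. Members with 10 or more UMIs of a list numbered 17 for myeloid, 9 for endothelial, 5 for basal and myoepithelial, 3 for lymphoid, 1 for mesenchymal and 1 for erythroid markers. The 12 duct markers had a median of 5 UMIs per member and 10 or more in 130 members. Their summed level was 3.03 UMIs per 10000 total in members, 1.56 in serous and 6.71 in mucous cells. Per 10000 UMIs outside 63 secreted product genes it was 29.1, 15.7 and 25.2, so the order of members and mucous cells turned with the scale. Mitochondrial UMIs had a median of 0.694% per member, and no member exceeded 20%.

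Within the Dcpp family, Dcpp3 gave the most UMIs, Dcpp2 fewer and Dcpp1 the fewest. On the scale of UMIs per 10000 total UMIs, called the total scale below, the summed level was 4155 for Dcpp3 (Poisson 95% interval 4152 to 4159), 2475 for Dcpp2 (2473 to 2478) and 1508 for Dcpp1 (1506 to 1510). Each molecule is counted once at its 3′ end, so these levels were not divided by length. Of the Dcpp UMIs of the members, 51.1% were Dcpp3, 30.4% Dcpp2 and 18.5% Dcpp1. Dcpp3 was the highest of the 3 in all 525 members, and the order Dcpp3, Dcpp2, Dcpp1 held in 475 of them (90.5%). In the Dcpp UMIs found in serous cells the split was 51.3%, 30.3% and 18.4%, and in the lymphoid reference 49.4%, 32.2% and 18.4%.

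The part of Dcpp1 differed widely from member to member, which the choice by the summed Dcpp share did not fix. Dcpp1 made up from 0.305% to 33.5% of a member's Dcpp UMIs, with a median of 19.5% and quartiles of 12.7% and 24.2%. Its standard deviation over the 525 members was 7.75 percentage points, 20.7 times the 0.375 points that counting alone would give. Dcpp3 ranged from 39.1% to 65.2% (11.2 times the counting spread) and Dcpp2 from 23.1% to 42.5% (7.32 times). Most of the spread of Dcpp2 and Dcpp3 was shared, since the shares of a cell add up to 100%. Dcpp2 as a part of Dcpp2 and Dcpp3 alone had a median of 37.8%, quartiles of 36.7% and 39.5% and a standard deviation of 2.24 points, 4.32 times the counting spread.

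The ends of the Dcpp1 range rested on many Dcpp UMIs, though the lowest members had few of Dcpp1 itself. The member with the lowest share had 16 Dcpp1 UMIs beside 1891 of Dcpp2 and 3341 of Dcpp3, the next 18 beside 2372 and 3192, and the one after it 69 beside 7772 and 13186. The member with the highest share had 2142 Dcpp1 UMIs beside 1539 and 2709. In the lymphoid reference, the median was 3 Dcpp1 UMIs per cell and the mean 7.86, or 5.44 without 5 reference cells of at least 50% Dcpp. Whether the few Dcpp1 UMIs of the lowest members came from free RNA or from windows shared within the family was not tested.

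The members filled the whole of this range. By its share of Dcpp UMIs, 38 members lay under 5%, 44 from 5 to 10%, 89 from 10 to 15%, 107 from 15 to 20%, 141 from 20 to 25% and 106 at 25% or more. From the lowest to the highest of these bins the summed level of Dcpp1 rose from 195.3 to 2299 UMIs per 10000 total, while that of Dcpp3 fell from 4932 to 3701 and that of Dcpp2 from 2848 to 2256. Counted instead per 10000 UMIs outside the product genes, a scale on which the Dcpp levels are free to move apart, Dcpp1 went from 1820 to 22758, Dcpp3 from 45961 to 36637 and Dcpp2 from 26536 to 22329. The median Dcpp share of UMIs was 79.5% in the lowest bin and 82.7% in the highest. Over the 525 members, which share 1 library, the Dcpp1 share had a Spearman rho of 0.0457 with total UMIs, 0.187 with the Dcpp share of UMIs and 0.142 with Dcpp2 as a part of Dcpp2 and Dcpp3. With Pglyrp1 and Bpifa2 per Dcpp UMI it had a rho of -0.323 and -0.018. All 5 are given as a description, and the shares have UMIs in common.

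**Figure D2:**
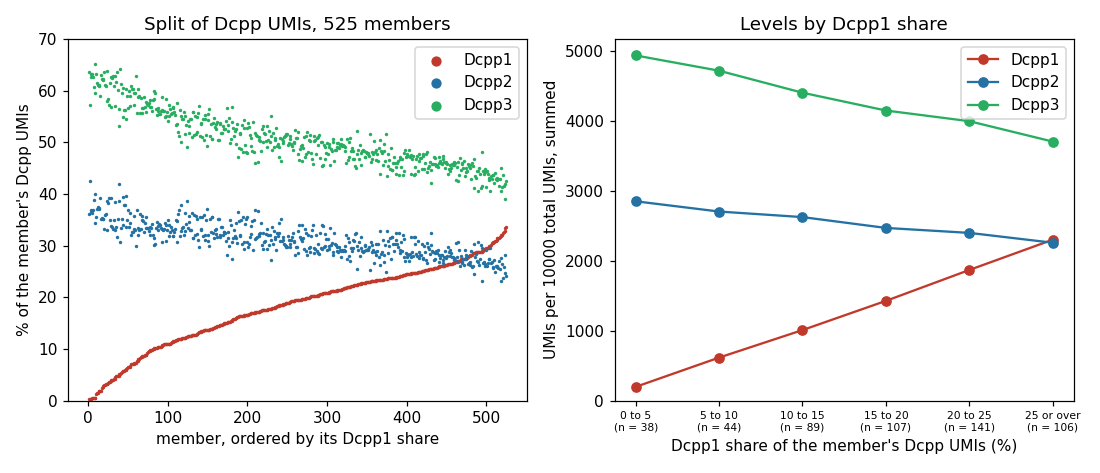
Left, the percentage of each member's Dcpp UMIs on Dcpp1 (red), Dcpp2 (blue) and Dcpp3 (green), for the 525 members ordered by Dcpp1. Right, the level of each gene summed over the members of 6 bins of Dcpp1 share, in UMIs per 10000 total UMIs. Dcpp1 climbs from 0.305% to 33.5% while Dcpp3 stays the highest throughout.

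A like spread was present in Dcpp-rich cells that the limits left out. In the 874 shallow Dcpp-rich barcodes the Dcpp1 share had a median of 18.4%, a standard deviation of 6.45 points and 5.03% of cells under 5%. In the 62 Dcpp-rich cells over the Muc19 and A2ml1 limit it had a median of 16.6%, a standard deviation of 7.74 points and 4.84% under 5%. The members themselves had 7.24% under 5%.

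Other secreted products also differed between these bins. The bins were set by the Dcpp1 share, so the rise of Dcpp1 over them is part of their definition. On the total scale Pglyrp1 was at 26.8 UMIs per 10000 in the lowest bin and 19.3 in the highest, and Wfdc18, a whey acidic protein domain protein, at 186.7 and 110.8. Bpifa2 was at 226.9 and 268.2 with no steady direction between, since the bins in the middle read 280.5, 215.1, 277.1 and 209.2. Mup4 was at 16.1 in the lowest bin and between 6.23 and 7.80 in the other bins. The level in the lowest bin leaned on few members. Those with 19722, 35023 and 40990 total UMIs held 379, 340 and 245 Mup4 UMIs, so it does not describe the bin as a whole.

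The proteins secreted beside Dcpp were led by Bpifa2, Wfdc18 and Pglyrp1. Bpifa2 (chromosome 2, 154008265 to 154016079) was at 242.1 UMIs per 10000 total in members (241.2 to 242.9), 1.73 in serous cells (1.70 to 1.76) and 193.5 in mucous cells. Wfdc18 (chromosome 11, 83709015 to 83711348) was at 141.8, 2.99 and 141.6, and Pglyrp1 (chromosome 7, 18871331 to 18890459) at 22.1, 0.195 and 20.2. Members thus exceeded serous cells 140-fold for Bpifa2, 47.4-fold for Wfdc18 and 113-fold for Pglyrp1 on the total scale. In mean UMIs per cell, serous cells and the lymphoid reference had 4.76 and 1.73 of Bpifa2 and 8.20 and 0.942 of Wfdc18. For Pglyrp1 they had 0.535 and 0.445, so its 113-fold is a ratio to a level near that of free RNA. In UMIs per cell members exceeded the lymphoid reference 348-fold, 374-fold and 124-fold, and 587-fold, 458-fold and 134-fold without 5 reference cells of at least 50% Dcpp. Against mucous cells the ratios on the total scale were 1.25, 1.00 and 1.09, with most of the mucous UMIs of these genes in the 62 cells that also had at least 50% Dcpp. Per 10000 UMIs outside the product genes, the scale used for other genes below, each ratio against mucous cells is 2.56 times as large.

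**Figure D3:**
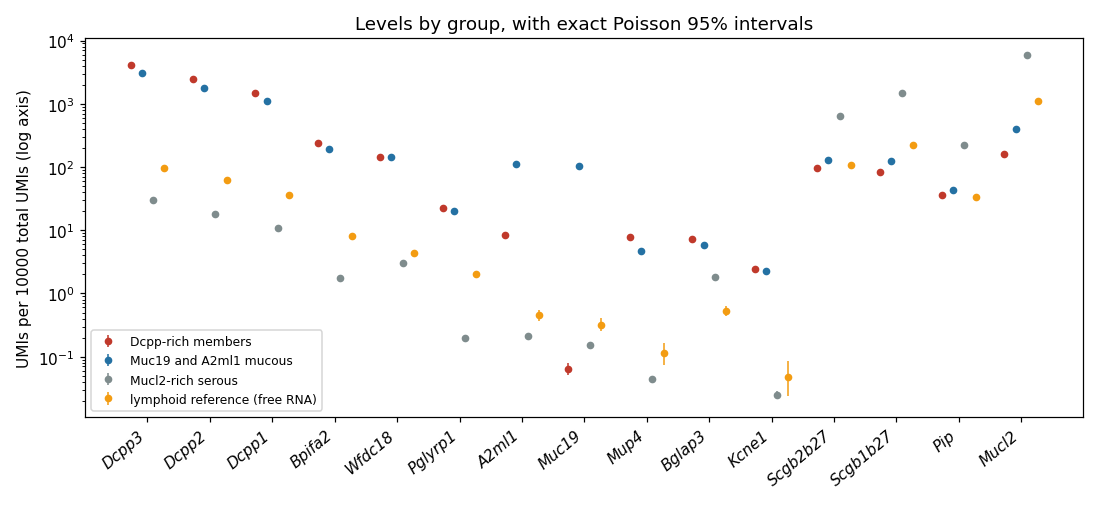
Summed level of 15 genes in members (red), mucous (blue) and serous cells (grey) and the lymphoid reference (orange), in UMIs per 10000 total UMIs on a log axis, with exact Poisson 95% intervals that are mostly smaller than the points. Members and the whole mucous group, 62 of whose 114 cells had at least 50% Dcpp, lie close for Dcpp, Bpifa2, Wfdc18 and Pglyrp1. The limits on A2ml1 (8.28 and 110.5) and Muc19 (0.0636 and 102.6) set these 2 genes apart.

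A gene could be everywhere in the members and still vary. Bpifa2 was missing from 2 members only, but ran up to 1376 UMIs per 10000, with a median of 198.0 and with 17 members (3.24%) under 10. Its coefficient of variation was 0.821, which was 15.4 times that of counting alone. Wfdc18 ranged from 3.66 to 817.1 (median 106.0, coefficient of variation 0.756, 10.8 times counting). Pglyrp1 was steadier, from 3.77 to 49.7 with a median of 20.1 and a coefficient of variation of 0.374, or 2.12 times counting.

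A2ml1, a protease inhibitor of the alpha-2-macroglobulin family, and Muc19, the gel-forming mucin of sublingual mucous cells, parted in the members although the choice limited their sum. A2ml1 had a UMI in 516 members (98.3%) at a mean of 20.6 UMIs per cell, against 6.24% of the lymphoid reference at 0.0974 per cell, with median depths of 24604 and 1880 UMIs. Muc19 had a UMI in 50 members (9.52%), at most 9 in a cell, and a mean of 0.158 per cell, against 3.41% and 0.0700 in the reference. The members held 130 A2ml1 UMIs for each Muc19 UMI. In mucous cells that number was 1.08, in the 62 Dcpp-rich cells over the limit 1.19, in serous cells 1.41 and in the lymphoid reference 1.39. The limits on these 2 genes shape these ratios, which are a description. Of the 62 cells, 13 had no Muc19 UMI. In 467 members A2ml1 was present with no Muc19 UMI.

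The 62 Dcpp-rich cells over the limit otherwise had much of the product profile of the members. They had 235.6 UMIs of Bpifa2, 164.7 of Wfdc18 and 23.2 of Pglyrp1 per 10000 total, beside 57.3 of Muc19 and 68.2 of A2ml1. In the 52 mucous cells with less than 50% Dcpp the levels were 44.0 for Bpifa2, 59.4 for Wfdc18 and 9.55 for Pglyrp1, beside 263.5 of Muc19 and 261.2 of A2ml1. Wfdc12, another whey acidic protein gene, was at 1.40 per 10000 in members, 54.1 in the 62 cells and 241.8 in the 52 cells. Whether the 62 barcodes held 1 cell or more was not tested.

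Some products of serous cells were found in members far beyond the level of free RNA and others were closer to it. Mucl2 was at a mean of 406 UMIs per cell in members and 239 in the lymphoid reference, a ratio of 1.70. Prol1, Scgb2b26 and the carbonic anhydrase Car6 stood at 1.71, 1.78 and 1.84 times the mean of the reference. The medians per cell were 274 and 117 UMIs for Mucl2, 8 and 4 for Prol1, 14 and 6 for Scgb2b26 and 6 and 3 for Car6. In 35 members Mucl2 took 10% or more of the UMIs. By the mean, Scgb1b27 stood at 4.26 times the reference, Scgb2b27 at 10.1 times and Pip, the prolactin-induced protein, at 12.2 times. The 2 Scgb genes encode androgen-binding proteins of the secretoglobin family. Per 100 Mucl2 UMIs the members had 21.8 of Pip and 58.3 of Scgb2b27, serous cells 3.72 and 11.0, and the reference 3.03 and 9.86. All 525 members had UMIs of Pip, Scgb1b27 and Scgb2b27. By level, Pip ranged from 2.79 to 177.6 per 10000 total over the members and Scgb1b27 from 8.07 to 1022.

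Outside the products, the most abundant RNAs were Malat1, 5 mitochondrial transcripts led by mt-Atp6, Mup4, Bglap3, Rpl41 and Rps29. Mup4 and Mup6 belong to the major urinary proteins, lipocalins that bind pheromones, whose copies resemble each other closely, and Bglap3 resembles Bglap and Bglap2, so their counts are less certain than those of single-copy genes. Mup4 was at 7.94 UMIs per 10000 total in members (7.78 to 8.09), 0.0451 in serous and 4.77 in mucous cells. It was at 0 in 139 members and as high as 192.2 per 10000 in another, and the top 52 members held 63.8% of its UMIs. Its coefficient of variation of 2.06 was the highest of the genes whose spread over the members was computed. As a multiple of counting, Dcpp1, Bpifa2 and Wfdc18, among others, varied more than Mup4. Mup6, at 2.68, was at 0 in 64 members, and its top 52 members held 30.1%. Kcne1, a small accessory subunit of potassium channels, was at 2.41 in members, 0.0245 in serous and 2.26 in mucous cells, and was detected in 88.4% of members and 1.04% of the lymphoid reference (63.2% and 0.481% after thinning). Its coefficient of variation of 0.649 was 1.21 times that of counting.

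**Figure D4:**
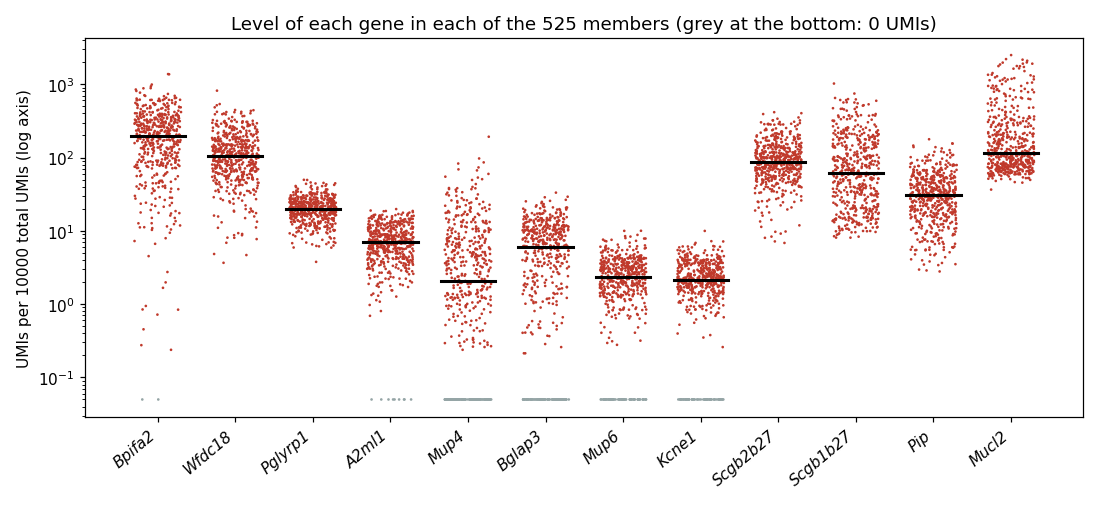
Level of 12 genes in each of the 525 members, in UMIs per 10000 total UMIs on a log axis, with the median as a black bar and cells at 0 UMIs in grey at the bottom. Pglyrp1 forms a narrow band from 3.77 to 49.7, Bpifa2 reaches from 0 to 1376, and Mup4 is at 0 in 139 members.

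Some of these levels differed with depth. The 525 members were divided by total UMIs into 3 sets of 175, with medians of 7446, 24604 and 39253 UMIs. Dcpp took 73.8%, 81.3% and 82.8% of their UMIs. Mucl2 was at 532.5, 130.1 and 113.9 per 10000 total, though its mean per cell was 419, 307 and 491 UMIs. Bpifa2 was at 221.9, 242.4 and 245.6, Pglyrp1 at 17.9, 21.0 and 23.5, and Mup4 at 4.76, 6.71 and 9.19. The median mitochondrial share was 1.12%, 0.720% and 0.529% in the same order. The part of depth in these differences was not tested.

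For all other genes, members were compared with serous and with mucous cells on the non-product scale, that is, in UMIs per 10000 UMIs outside the 63 product genes. Against serous cells 7137 genes had at least 100 UMIs, of which 430 (6.02%) were at least 2-fold higher in members and 320 (4.48%) at least 2-fold lower, 10.5% in either direction. Against mucous cells 2750 genes were compared, with 88 (3.2%) higher and 78 (2.84%) lower, 6.04% in either direction. The median log2 ratio over all genes was 0.09 against serous and 0.11 against mucous cells. On the total scale the ratios against serous cells shift by 0.07 and those against mucous cells by -1.36 on the log2 scale, since product genes took 89.6% of the UMIs of members and 73.3% of those of mucous cells. There 2 genes were at least 2-fold higher than in mucous cells and 1974 lower, so directions against mucous cells are relative to the other non-product genes. Against the 52 mucous cells with less than 50% Dcpp, 264 genes were higher and 92 lower.

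Among the genes above serous cells, Mup4 led with a log2 ratio of 7.39 (interval 7.24 to 7.55), followed by Capns2, a calpain small subunit (6.97), B3gnt6, which starts core 3 O-glycans (6.74), Mup6 (6.71), Cst10, a cystatin (6.60), and Kcne1 (6.55). A330048O09Rik (6.47), Lmod2 (6.30), the transcription factor Sox2 (6.14) and the neurotrophin receptor Ntrk2 (5.79) completed the 10 highest. Of these, Mup4, Mup6 and Kcne1 had 10355, 3499 and 3147 UMIs in the members, whereas Capns2 had 159, Lmod2 100 and A330048O09Rik 96. Sox2 had 243 UMIs in members and 19 in serous cells, and a UMI in 30.7% of members. After thinning, Sox2 was seen in 8.19% of members, 0.223% of serous cells and 0 of 1040 lymphoid cells. With that 0 set to 3, the share of cells with a UMI, not of cells expressing the gene, would be 0.288%.

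At the other end stood genes that serous cells carried and members nearly lacked. Mup5 had 19502 UMIs in serous cells and 81 in members, a log2 ratio of -5.45 (-5.78 to -5.13), opposite in direction to Mup4 and Mup6. Esp8, an exocrine gland secreted peptide, had 1243 and 2 UMIs (-6.81), Adtrp 325 and 1 (-5.88) and the fructose transporter Slc2a5 650 and 3 (-5.29). 2310057J18Rik (-5.79), Susd2 (-5.18), Apof (-5.02), A630073D07Rik (-4.93) and Cped1 (-4.67) followed. Cped1 had 1 UMI in members and 141 in serous cells. With Muc19 and A2ml1 limited to under 5 per 10000 it was at -0.84. At so few UMIs that value depends on the 3 counts set in place of 0 and does not show a smaller difference. Bglap had 450 UMIs in serous cells and 0 in members, 27.1-fold lower with 3 counts taken as the floor over the group (log2 interval up to -4.46). In mean UMIs per cell, Mup5 was at 0.154 in members and 0.116 in the lymphoid reference.

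Against mucous cells the highest ratios were smaller than against serous cells. Ly6c1 (log2 2.58), Id3 (2.53), Cst10 (2.19), Mup4 (2.09), Fabp4 (2.03), 1500002F19Rik (1.99), Plin2 (1.97), Tcim (1.84), Apoe (1.81) and Mup6 (1.75) were the 10 highest. Fabp4 and Ly6c1, both abundant in endothelial cells, had a UMI in only 5.90% and 4.57% of members (2.34% and 1.56% after thinning, beside 0.865% and 0.385% of lymphoid cells). The summed level of the 8 endothelial markers, Fabp4 and Emcn among them, was 2.63 UMIs per 10000 non-product UMIs in members, 1.11 in serous and 0.581 in mucous cells (0.274, 0.111 and 0.155 per 10000 total), and Emcn was above serous cells too (1.41). That of the 10 myeloid markers was 11.3, 9.85 and 7.69 per 10000 non-product UMIs, with C1qa at 1.09 against mucous cells. Their part in these ratios and in that of Apoe, which macrophages also make, was not tested. Plin2, which coats lipid droplets, had a UMI in 61.0% of members (22.0% after thinning, beside 1.06% of lymphoid cells). It was also far above serous cells (log2 5.75, 5.43 to 6.09). The lowest were Lman1l, a lectin of the secretory pathway (-7.84), Fgl2 (-6.24), Cpe, carboxypeptidase E (-6.22), Sel1l3 (-5.79), Fam25c (-5.29), Wfdc12 (-4.73), Cgref1 (-4.50), Ramp1 (-3.68) and Slc12a8 (-3.53). The neuropeptide gene Gal had 127 UMIs in mucous cells and 0 in members, 108-fold lower with the 0 set to 3 counts (log2 interval up to -6.43). With the Muc19 and A2ml1 limit set at 5 in place of 20, which passes most members to the mucous group, Mup4 (0.55), Mup6 (0.46), Plin2 (0.77), Id3 (0.57), Fabp4 (0.76), Tcim (0.29) and 1500002F19Rik (0.31) were within 2-fold and Apoe was at -0.037.

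Of the 26 secretory transcription factors listed, 23 had enough UMIs against serous cells. Members were higher for 6 and lower for 1, beside 6.02% and 4.48% over all genes. The median log2 ratio was 0.38 beside 0.09 over all genes. Xbp1, which drives secretory expansion of the endoplasmic reticulum, was at 18.4 UMIs per 10000 non-product UMIs in members (17.7 to 19.1) and 6.35 in serous cells (log2 1.54, 1.47 to 1.61). Klf5 (2.20), Etv1 (1.24), Ehf (1.20) and Atf6 (1.14) were also higher, beside Sox2. Bhlha15, or Mist1, the factor typical of serous exocrine cells, was lower, at 0.802 against 3.05 (log2 -1.93, -2.22 to -1.65), and was seen in 2.92% of members and 13.6% of serous cells after thinning. Sox9 (-0.12) and Sox10 (-0.38) were within 2-fold. Against mucous cells 21 factors were compared, and 3 were lower, beside 2.84% over all genes. They were Foxa1 (-2.26), Spdef, a regulator of mucous differentiation (-1.74), and Creb3l4 (-1.59). With the limit at 5, Spdef (-0.59) and Creb3l4 (-0.98) were within 2-fold, as were Ehf (0.94) and Atf6 (0.80) against serous cells. Xbp1 was at 14.0 in mucous cells (log2 0.39).

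Of 20 immediate early and heat shock genes, members exceeded serous cells for 9 and were lower for 2, beside 6.02% and 4.48% over all genes, with a median of 0.77. Higher were Ier3 (3.23), Atf3 (1.67), Ier2 (1.56), Egr1 (1.54), Fos (1.49), Jun (1.36), Junb (1.06), Zfp36 and Klf6, transcription factors and regulators that cells switch on within a short time of a stimulus. Lower were the heat shock genes Hspa1b (-1.98) and Hspa1a (-1.84), near copies of each other, and the rest, Hspb1 (-0.08) included, were within 2-fold. Against mucous cells, where 3.2% of all genes were higher, Ier3 (1.51) and Hspb1 (1.34) were higher and the other genes were within 2-fold. On the total scale these ratios were 0.16 and -0.013, and with the limit at 5 Ier3 was at 0.54. Over members, Fos was at a median of 4.78 UMIs per 10000 total, with 25 members at 0. The labels record a warm digestion of the tissue for every sample, and its part in these levels was not tested.

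Genes of translocation and folding in the endoplasmic reticulum were mostly level. Of 60 compared with serous cells, 8 were higher and 2 lower, beside 6.02% and 4.48% over all genes, with a median of 0.26. Higher were the disulfide isomerases Pdia4 (1.71), Pdia3 (1.15) and Txndc5 (1.05), with Creld2 (1.64), Dnajb9 (1.02), Sdf2l1 (1.02), Srp14 and Dnajc3. Lman1l (-3.38) and Ero1lb (-1.09) were lower, and Hspa5, the main chaperone, had a ratio of 0.25. Against mucous cells 56 were compared, with Sdf2l1 (1.08) and Derl3 (1.02) higher and Lman1l, Sec61a1 (-1.31) and Txndc11 (-1.27) lower. Over all genes 3.2% were higher and 2.84% lower. On the total scale Sdf2l1 (-0.28) and Derl3 (-0.34) turned, and Derl3 was at -0.13 with the limit at 5. The median of 81 cytosolic ribosomal protein genes against serous cells was -0.49. Of them 2, Rpl12 and Rplp1, were at least 2-fold lower, beside 4.48% over all genes. Both of these and Srp14, Dnajc3, Dnajb9 and Sdf2l1 lay so near 2-fold that some of the other limits put them within it. The 14 oxidative phosphorylation genes were all within 2-fold of both groups. Over all genes 10.5% were past 2-fold against serous cells and 6.04% against mucous cells.

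**Figure D5:**
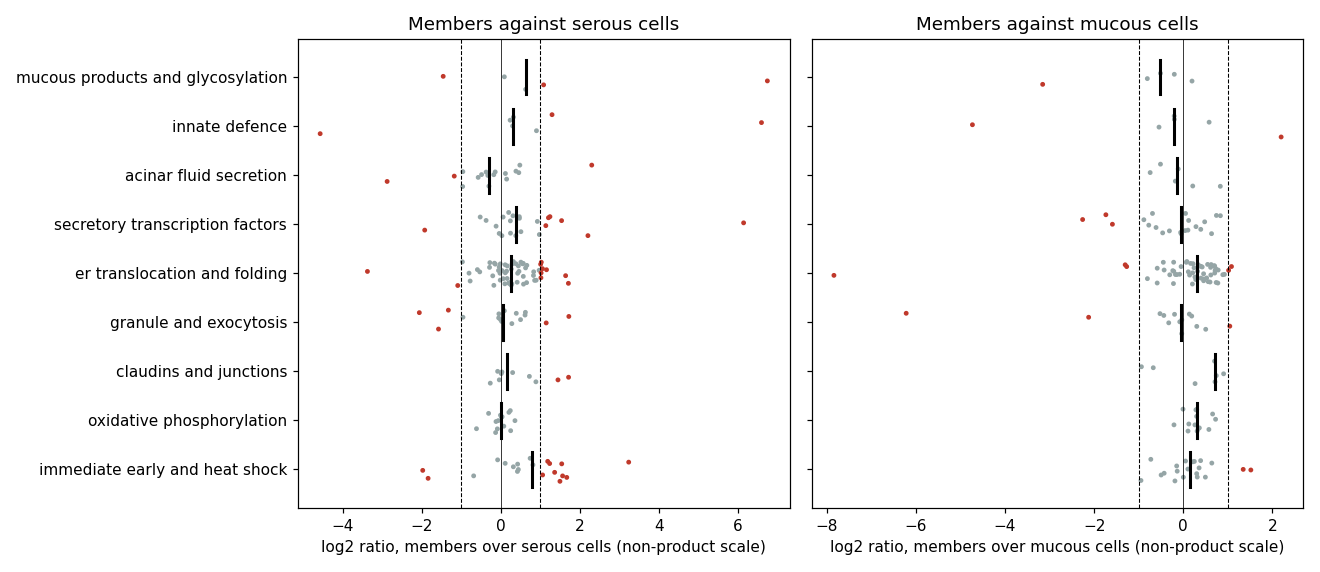
Log2 ratio of members over serous cells (left) and over mucous cells (right) on the non-product scale for the genes of 9 lists that had at least 100 UMIs, with red points past the dashed 2-fold lines and black bars at the medians. The median of the immediate early and heat shock list against serous cells is 0.77 and that of the endoplasmic reticulum list 0.26.

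Fluid secretion genes lay slightly lower than in serous cells, with a median of -0.30 over 17 genes. Slc12a2, the chloride-loading cotransporter, was at 7.29 against 16.5 UMIs per 10000 non-product UMIs (log2 -1.18, -1.28 to -1.09), and the adrenergic receptor Adrb1 was at 10 UMIs in members and 407 in serous cells (-2.88). Aqp5 (-0.37), the channel Ano1 (-0.97) and the muscarinic receptor Chrm3 (0.14) were within 2-fold. None of the 6 compared with mucous cells passed 2-fold, beside 6.04% over all genes.

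Among 16 granule and exocytosis genes compared with serous cells, Stx3 (1.72) and Anxa7 (1.15) were higher, and Pam, the peptide-amidating enzyme (-2.07), Furin (-1.58) and Rab27b, a granule GTPase (-1.33), were lower. Against mucous cells Stx3 (1.04, and -0.31 on the total scale) was higher and Cpe and Pam (-2.13, and -0.49 with the limit at 5) were lower, of 14. Of 10 claudins and junction genes Cldn7 (1.71) and Epcam (1.44) were higher than in serous cells, and Cldn10, at 0.89 and 0.90 against the 2 groups, came close to 2-fold. Of the 5 genes of mucous products and glycosylation that could be compared, B3gnt6 and C1galt1 (1.08) were higher than in serous cells and the sialic acid transporter Slc35a1 (-1.46) lower, and Slc35a1 was lower than in mucous cells too (-3.16). For the counts of these 3 lists, the shares over all genes were 6.02% higher and 4.48% lower than in serous cells. Against mucous cells they were 3.2% and 2.84%.

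Of the 25 innate defence genes listed, 7 outside the products could be compared with serous cells. Cst10 and Cst3 (1.29), both cystatins, were higher and Wfdc12 was lower (-4.58), beside 6.02% and 4.48% over all genes. Pigr, the receptor that carries polymeric immunoglobulin into saliva, was at 17.1 UMIs per 10000 non-product UMIs in members, 9.16 in serous and 19.7 in mucous cells (log2 0.90 and -0.21), and was seen in 47.8% of members and 1.15% of lymphoid cells after thinning. Lpo, lactoperoxidase, was at 0.0904 per 10000 total in members and 1.16 in serous cells. Ltf and Lyz1 had 1 UMI each in the members.

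High counts at the Dcpp locus stopped at the 3 genes. From 250 kb before to 250 kb after the locus GENCODE M21 lists 49 genes, of which 39 are in the matrix and 24 had a UMI in the members. Each of these counts includes the 3 Dcpp genes themselves. Of 2 lincRNA genes that lie on the opposite strand within or across the locus, 1 had 1 UMI over the 525 members and the other 0, beside 10619494 Dcpp UMIs. The nearest protein-coding neighbours in the matrix, Prss21 upstream and Sbp downstream, had 0 and 1 UMI, and Sbpl had 4. The serine protease gene Prss32 had 26 UMIs in members, 1 in serous and 2 in mucous cells. Housekeeping neighbours were present, Elob at 1117 and Srrm2 at 374 UMIs, with log2 ratios of 0.31 and 0.05 against serous cells. Of 11 genes here that could be compared with serous cells, Paqr4 was higher (1.37) and Bicdl2 lower (-1.42, on 8 UMIs in the members). Over all genes 6.02% were higher and 4.48% lower.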

How the data were processed

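The authors deposited 1 matrix of raw UMI counts per gene and barcode from 10x 3' libraries, which per the labels was made with Cell Ranger 6.0.1 on mm10. The annotation is not given in the sources used here, and the labels also name Seurat 4.1.1, whose output was not used. Depth was 1374 to 141509 UMIs per barcode with a median of 2608, and all 15707 barcodes were kept. The members, the gene lists and the limits were chosen with earlier results of these data known.

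UMIs were summed over each group. Levels carry exact Poisson and shares exact binomial 95% intervals, and ratios the exact conditional binomial interval, for counting error only. No test was run, since the matrix is 1 sample. Ratios needed at least 100 UMIs over both groups and left out 63 product genes, and a count of 0 was set to 3. The genes named are the listed ones (a listed fluid secretion gene is not reported here), the 10 highest and 10 lowest ratios of each comparison, the 10 most abundant RNAs outside the products and the neighbours within 250 kb. Plin2 against serous cells and the cells at the ends of the Dcpp1 range were added after their values were seen, and the promoter motifs after the sequences were seen. Thinning kept 500 non-product UMIs per cell. Promoters came from RefSeq (GRCm38.p6), where all 3 genes matched, and were aligned with Biopython 1.88. Other steps used Python 3.11.15 with pandas 2.3.3, scipy 1.17.1, numpy 2.4.6 and, for plots, matplotlib 3.10.9. The methods were tested on simulated data. Alternatives were other limits, a filter on cells, removal of the deepest 5% of cells, removal of free RNA, other scales, folds and minimum counts. After seeing the data, mucous cells without at least 50% Dcpp and members without at least 10% Mucl2 were added.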

Additional observations from a re-analysis of the deposited data

How the results depend on the processing

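Of the 525 members, 147 stayed with Muc19 and A2ml1 under 5 per 10000, and the other limits left 385 to 778. Dcpp took 79.0% of the members' UMIs at a 30% minimum share, 82.4% at 70%, 81.8% and 81.2% with Muc19 and A2ml1 under 5 and under 50, 86.8% with free RNA taken away, 79.0% as a mean over cells, 81.9% without members of at least 10% Mucl2, and 82.1% and 80.5% at minima of 10000 and 3000 UMIs. The standard deviation of the Dcpp1 share kept between 7.41 and 8.21 points. Against serous cells, the higher and lower counts were 834 and 629 at a minimum of 30 UMIs, 195 and 154 at 300, and 91 and 102 at 4-fold. The lower count rose to 669 under 5 per 10000 and to 603 with free RNA taken away. Against mucous cells they were 308 and 305 at 30 UMIs, 32 and 23 at 300, 5 and 27 at 4-fold, 181 and 149 with free RNA taken away, and 2 and 1974 on the total scale. The higher count was 11 under 5 per 10000, 139 under 50, and 264 against the 52 mucous cells with less than 50% Dcpp. The causes were not tested. For 107 ratios past 2-fold, 1277 values were re-computed over the settings, and 1198 stayed past 2-fold in the same direction. Their genes include the highest and lowest ratios of each comparison and the listed genes past 2-fold in these data. That choice favours a high kept share. The ratios that turned were against mucous cells. With the limit at 5, which moves members into the mucous group, they were Apoe (-0.037), Capns2 (-0.62), Derl3 (-0.13) and Lmod2 (-0.019), and on the total scale Derl3 (-0.34), Hspb1 (-0.013), Lmod2 (-0.31), Sdf2l1 (-0.28) and Stx3 (-0.31). No paired analysis was possible because cells are not tied to samples, and for that reason no sample could be left out either. Depth limits genes under 100 UMIs over both groups.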
